A study of Mus musculus with 10 samples.

Results

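The 28 genes described here encode subunits of RNA polymerase I, II and III, the 3 nuclear enzymes that copy DNA into RNA. They are all protein-coding genes whose mouse symbol is Polr1, Polr2 or Polr3 followed by a letter, taken from 45321 genes with a transcript in the deposited tables, of which 21647 are protein coding. Symbols starting with Polr1 gave 5 genes, those with Polr2 gave 13 and those with Polr3 gave 10. All 28 had enough counts to enter the tests, which covered 14417 genes.

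RNA polymerase I makes the large ribosomal RNA precursor in the nucleolus, RNA polymerase II makes messenger RNA, and RNA polymerase III makes transfer RNA, 5S ribosomal RNA and other small RNAs. Each enzyme is built around a pair of large catalytic subunits, joined by an assembly platform, a stalk that guides the nascent RNA, and small subunits that several of the enzymes share. A naive T cell is small and quiet, and when it is activated it grows and increases its output of ribosomes and transfer RNA before it divides. By the enzymes that hold their product, the genes fall into 3 of polymerase I only (Polr1a, Polr1b, Polr1e), 2 of polymerases I and III (Polr1c, Polr1d) and 5 shared by all 3 enzymes (Polr2e, Polr2f, Polr2h, Polr2k, Polr2l). Another 8 belong to polymerase II (Polr2a, Polr2b, Polr2c, Polr2d, Polr2g, Polr2i, Polr2j, Polr2m) and 10 to polymerase III only, among them Polr3a, Polr3b, Polr3c, Polr3d, Polr3e, Polr3f, Polr3g, Polr3gl and Polr3k.

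RNA was sequenced from naive CD4 T cells sorted as CD4+CD62L+CD69- from the spleens of C57BL/6 mice. Every group first received 1 h of either 12.5 µM Compound 10, described by the series as a chemical inhibitor of the NFAT:AP-1 transcription factor complex, or its solvent DMSO (vehicle). The cells were then left without stimulus, as vehicle (n = 3 libraries) or Compound 10 (n = 2), or received 10 nM PMA and 1 µM ionomycin for 2 h, as vehicle (n = 2) or Compound 10 (n = 3). PMA activates protein kinase C and ionomycin raises calcium, which together stand in for the T cell receptor, so the receptor itself was not engaged. The labels give neither age nor sex, and they do not tie libraries to single animals or cultures, which means that the p-values rest on the spread among these libraries alone, which may be technical.

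Libraries held between 10694591 and 33486259 estimated counts. Markers of T cell identity summed to between 2720 and 3980 CPM (counts scaled to a common library total), and all 10 of those genes were found in each library. The sums were 3.11 to 11 CPM for B cell, 0.282 to 4.36 for myeloid, 0.0361 to 1.92 for NK cell and 1.99 to 8.59 for CD8 T cell markers, with Ncr1 at 0 in every library and Cd8a, Csf1r and Lyz2 at 0 in some. Libraries with high index numbers, a numbering kept with the deposited tables, stood apart. These were the third unstimulated vehicle, the second unstimulated Compound 10 and the third stimulated Compound 10 library, with index numbers 25, 26 and 29. In the third unstimulated vehicle library, 13 of the 14 subunit genes with transcripts under 2000 bases were above the mean of the other 2 libraries, against 3 of the 14 longer ones. Across the 28 genes the difference fell with transcript length (Pearson r = -0.82, Spearman rho = -0.79, a description of genes that share a library), and across all tested genes r was -0.25. The same r over the 28 genes was -0.77 for the second unstimulated Compound 10 library against the first, and -0.59 for the third stimulated Compound 10 library against the other 2. It was -0.47 between the 2 stimulated vehicle libraries, whose index numbers are lower. For the fold changes described below, r with transcript length was 0.34 for stimulation under vehicle, 0.28 for stimulation with Compound 10, -0.05 and 0.19 for the compound in stimulated and unstimulated cells, and -0.15 for their interaction.

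**Figure D1:**
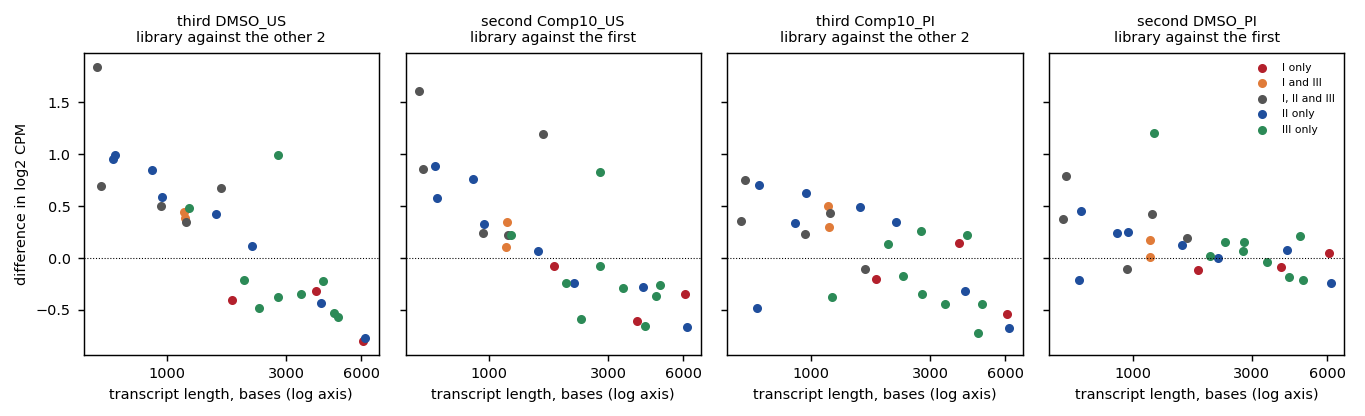
Difference in log2 CPM between libraries of 1 group (y axis) against the count-weighted mean transcript length of each subunit gene in bases (x axis, log scale), coloured by the polymerases that hold the subunit; 1 of the 28 genes is not drawn. In the first 3 panels, which show the libraries with index numbers 25, 26 and 29, short genes lie mostly above 0 and long genes mostly below, with r of -0.82, -0.77 and -0.59.

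Levels of different genes are compared per length, as deposited TPM (transcripts of a gene among a fixed total of transcripts) summed over a gene's transcripts. In unstimulated vehicle cells the order ran from Polr2e, a subunit shared by all 3 enzymes (255 ± 12.9 TPM, SD, n = 3), and the polymerase II stalk gene Polr2g (237 ± 65.8) down, among the genes named here, to Polr3d of polymerase III (8.27 ± 2.24). Polr2a, the largest subunit of polymerase II whose tail is phosphorylated during transcription, had a mean of 142 ± 40.3 TPM. The largest subunits of the other enzymes were far lower, Polr1a at 8.88 ± 3.17 and Polr3a at 13.3 ± 3.81 TPM. The named genes of polymerase III only lay between 8.27 and 41.7 TPM on average. Of 27 pairs of neighbours in this order, 25 overlapped in their libraries, so most neighbouring ranks could not be told apart. After stimulation with vehicle the order was led by Polr1c and Polr1d, the platform subunits shared by polymerases I and III (212 ± 6.65 and 197 ± 22.7 TPM, n = 2). With Compound 10 and stimulation it was led by Polr2a and Polr2g (245 ± 62.8 and 225 ± 23.6 TPM, n = 3), and Polr3a was last at 2.96 ± 0.925 TPM. There 4 of 27 pairs of neighbours did not overlap, against 9 with vehicle.

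The first comparison asked how stimulation changed the subunit genes in vehicle cells. Expression of a single gene is given from here on as CPM with TMM scaling, which serves to compare libraries and not genes. Polr1b, the catalytic partner of Polr1a in polymerase I, and Polr3d, a subunit of the polymerase III subcomplex that resembles the factor TFIIF, rose about as much as each other and more than any other subunit gene. Both genes of the platform shared by polymerases I and III rose, while the shared gene Polr2e, the polymerase II fidelity subunit gene Polr2i and the paralogs Polr3g and Polr3gl of polymerase III fell. In all, 6 of 28 were called higher, where 19.5% of all tested genes were, and 5 lower, where 19.4% were (edgeR quasi-likelihood, adjusted p under 0.05). The median log2 fold change of the 28 was 0.13, beside -0.06 over all genes tested.

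Polr1b (chromosome 2, 129100995 to 129126594, mm10, plus strand) measured 27.3, 25.6 and 21.2 CPM in the unstimulated vehicle libraries and 115 and 108 CPM in the stimulated ones. The groups were far apart, with a log2 fold change of 2.18 ± 0.23 (SE; adjusted p = 2.6e-05 by edgeR). Polr3d (chromosome 14, 70438757 to 70443447, minus strand) went from 11.6, 7.60 and 8.09 to 37.5 and 38.1 CPM, a change of 2.06 ± 0.23 (adjusted p = 3.26e-05 by edgeR). Polr1c rose by 1.52 ± 0.20, Polr1d by 1.09 ± 0.18 and Polr2a, among others, by 0.93 ± 0.28.

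Of the falls, Polr2i had the largest, from 10.7, 10.3 and 20.4 to 2.83 and 2.42 CPM (-2.40 ± 0.42). It shares 325 exon bases with Tbcb on the other strand, and since these libraries do not mark strand, reads of the pair there cannot be told apart. Polr2e (-1.13 ± 0.21), Polr3g (-1.001 ± 0.22), Polr3gl (-1.38 ± 0.36) and Polr3c, of the initiation subcomplex to which both paralogs belong (-0.83 ± 0.24), fell as well. The other 17 genes were not called and had log2 fold changes from -0.66 (Polr2j) to 0.50 (Polr1a). With no scaling beyond library totals, the median of all genes moved to -0.83 and the calls became 3 higher and 13 lower. Of all 14417 tested genes, 1202 were then higher and 6610 lower. Polr1d and Polr2a were among those no longer called (0.32 and 0.14). Without the first stimulated vehicle library, Polr2a, Polr3c and Polr3gl were not called (0.79, -0.76 and -0.92; adjusted p = 0.151, 0.127 and 0.104 by edgeR), and without the second, Polr2a and Polr3c were among those not called (1.02 and -0.93; 0.0617 and 0.0679). Polr3c also lost its call without the first or the second unstimulated vehicle library (-0.73 and -0.77; 0.053 and 0.0507).

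**Figure D2:**
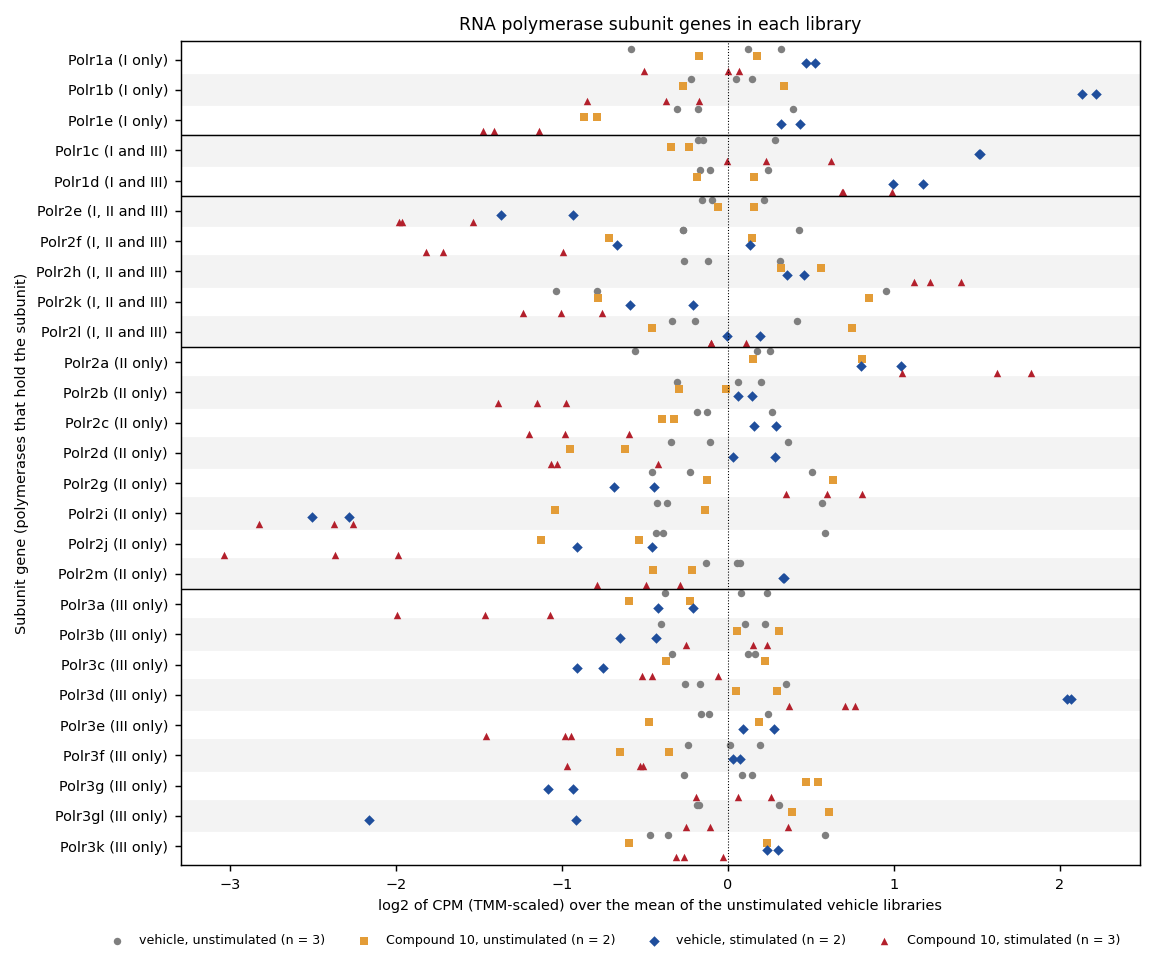
Log2 ratio of each library's CPM (TMM-scaled) to the mean of the unstimulated vehicle libraries (x axis) for the subunit genes named here (y axis), grouped by the polymerases that hold the subunit; each point is 1 library. The stimulated vehicle libraries (blue diamonds) lie above 2 for Polr1b and Polr3d, and the stimulated Compound 10 libraries (red triangles) lie to the left of them for 18 genes and to the right for 7. The share over all tested genes was not counted.

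The effect of Compound 10, the comparison the series was designed for, was taken up next in stimulated cells. Polr1b of polymerase I had the largest fall of the 28, and Polr1e, of the TFIIF-like subcomplex of that enzyme, and Polr1c fell too. Genes of polymerase II and III fell and rose side by side within the same enzyme. In all, 14 of 28 were called lower, where 12.8% of all tested genes were, and 4 higher, where 10.4% were (edgeR). The median of the 28 was -0.65 on the log2 scale, beside 0.04 over all genes tested. By enzyme, the calls were 2 lower of 3 for polymerase I only (median -1.71), 1 lower of 2 for polymerases I and III (-0.75), 2 lower and 1 higher of 5 for the shared subunits (-0.60), 5 lower and 1 higher of 8 for polymerase II (-0.91) and 4 lower and 2 higher of 10 for polymerase III (-0.45). Whether the enzymes differed from each other was not tested. The libraries did not overlap between compound and vehicle for 25 of 28 genes, 18 lower and 7 higher, among them genes that were not called, such as Polr2a and Polr1d. The share of all tested genes without overlap was not counted, so this count is a description of the libraries only.

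Among polymerase I genes, Polr1b fell from 115 and 108 CPM to 13.7, 21.9 and 19.1, and so to the range of the unstimulated cells or below it (-2.61 ± 0.24; adjusted p = 6.21e-05 by edgeR). Polr1e (chromosome 4, 45018583 to 45036565, plus strand) fell from 24.3 and 22.4 to 8.18, 6.77 and 6.46 CPM (-1.71 ± 0.24). Polr1c (chromosome 17, 46243920 to 46248054, minus strand) fell from 193 in both vehicle libraries to 67.1, 79.2 and 104 CPM (-1.21 ± 0.20). Its platform partner Polr1d stood at 186 and 210.1 CPM with vehicle and 150.5, 149.9 and 185 with the compound, a difference of -0.29 ± 0.18 that was not called. The catalytic gene Polr1a, at 43.01 and 44.6 against 32.5, 31.02 and 21.9 CPM, was not called either (-0.62 ± 0.27; adjusted p = 0.115 by edgeR).

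The pair of catalytic genes of polymerase II moved apart. Polr2b (chromosome 5, 77310147 to 77349324, plus strand), the second of the pair, fell from 181 and 192 CPM to 78.1, 88.3 and 66.5 (-1.27 ± 0.18; adjusted p = 0.000632 by edgeR). Polr2a (chromosome 11, 69733997 to 69758637, minus strand) was at 939 and 794 CPM with vehicle and at 1618, 1403 and 942 with the compound, so the groups did not overlap, but the third compound library lay just above the vehicle range. The difference of 0.61 ± 0.29 was not called (adjusted p = 0.162 by edgeR). In the libraries with index numbers under 25, an alternative chosen after seeing the data, it was 0.78 and was called (adjusted p = 0.000521 by edgeR). Both genes of the polymerase II platform fell: Polr2c went from 92.5 and 101 to 36.2, 41.9 and 54.8 CPM (-1.13 ± 0.20) and Polr2j from 20.7 and 28.4 to 4.75, 7.54 and 9.82 CPM (-1.73 ± 0.37). Polr2c shares 953 exon bases with Dok4 and Polr2j shares 176 with Lrwd1, each on the other strand.

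The stalk partners of polymerase II went in opposite directions. Polr2g rose from 59.9 and 70.7 to 145.7, 122.8 and 168.6 CPM (1.16 ± 0.30), and Polr2d fell from 54.1 and 64.5 to 25.98, 25.28 and 39.54 CPM (-0.97 ± 0.25). Neither pair of groups overlapped. Polr2m, the gene of the polymerase II associated protein Gdown1, fell from 184 in both vehicle libraries to 84.6, 104 and 119 CPM (-0.84 ± 0.17). Polr2i did not differ beyond its spread (-0.07 ± 0.43).

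Of the subunits shared by the 3 enzymes, Polr2e fell from 57.2 and 77.0 to 37.7, 37.3 and 50.8 CPM (-0.68 ± 0.20), and Polr2f from 7.98 and 13.9 to 3.869, 3.599 and 6.368 CPM (-1.25 ± 0.39). Polr2h rose from 39.79 and 36.96 to 67.3, 63.1 and 76.7 CPM (0.85 ± 0.20). Polr2k and Polr2l were not called (-0.60 ± 0.61 and -0.13 ± 0.33). Subunits that every enzyme needs thus showed no common direction.

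In polymerase III the catalytic gene Polr3a (chromosome 14, 24448696 to 24487058, minus strand) fell from 26.4 and 30.6 to 16.8, 12.8 and 8.85 CPM (-1.16 ± 0.27). Its partner Polr3b stood at 29.9 and 25.7 CPM with vehicle and at 47.4, 44.8 and 33.9 with the compound (0.60 ± 0.23; adjusted p = 0.0833 by edgeR), and was called higher in the fit on libraries with index numbers under 25 (0.72). Polr3d and Polr3e, which pair in the TFIIF-like subcomplex, both fell. Polr3d went from 37.5 and 38.1 to 15.5, 11.7 and 14.9 CPM (-1.43 ± 0.23) and Polr3e from 39.79 and 34.97 to 11.9, 17.1 and 16.6 CPM (-1.29 ± 0.24). In the initiation subcomplex Polr3f fell (31.8 and 30.9 to 21, 21.25 and 15.5 CPM, -0.70 ± 0.21) and Polr3c was not called (0.50 ± 0.24). The RNA-cleavage subunit gene Polr3k was not called (-0.47 ± 0.32).

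Polr3g and Polr3gl encode alternative versions of 1 subunit of the initiation subcomplex. Polr3g is known from dividing and pluripotent cells and Polr3gl from resting and differentiated ones. Both rose with the compound in stimulated cells. Polr3g (chromosome 13, 81673843 to 81711013, minus strand) measured 7.47 and 8.31 CPM with vehicle and 19.01, 16.54 and 13.89 with the compound (1.06 ± 0.22), and 16.8, 17.5 and 13.2 in unstimulated vehicle cells. Polr3gl (chromosome 3, 96577872 to 96594181, minus strand) measured 2.19 and 5.19 CPM with vehicle, the first of these from 17 counts, and 12.6, 9.08 and 8.23 with the compound (1.40 ± 0.37), against 8.60, 8.67 and 12.1 in unstimulated vehicle cells. Stimulation with vehicle had thus lowered both, and with the compound both stood within or near the range of unstimulated vehicle cells.

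Far fewer of all tested genes were called when either stimulated vehicle library was left out, which leaves 1 in that group, so a lost call need not mark that library. Without the first, the 4 genes called higher kept their direction but none was called: Polr2g at 1.04, Polr2h at 0.90, Polr3g at 0.98 and Polr3gl at 0.94 (adjusted p = 0.15, 0.0737, 0.0655 and 0.153 by edgeR). Without the second, Polr2g and Polr2h were not called (1.29 and 0.80), nor were Polr2d (-0.83), Polr2e (-0.44), Polr2f (-0.78), Polr2j (-1.47), Polr3a (-1.04) and Polr3f (-0.72), which left 8 genes lower. Polr2d and Polr3f also lost their call without the first (-1.09 and -0.69). Without the first or the second stimulated compound library, Polr2d (-0.87 and -0.86), Polr2e (-0.61 and -0.60) and Polr2f (-1.15 and -1.10) were not called, nor was Polr3gl without the first (1.20). Without the third, Polr2g and Polr3f were not called (1.04 and -0.57). Polr1b, Polr1c, Polr1e, Polr2b, Polr2c, Polr2m, Polr3d and Polr3e stayed called in every alternative run. In the libraries with index numbers under 25, more of the 28 were called in both directions, and so were more of all tested genes. That fit leaves 1 unstimulated compound library. The memory or effector T cell marker sum, mostly Il2rb, was 139 to 156 CPM in stimulated vehicle and 70.4 to 95.8 in stimulated compound libraries. In unstimulated cells this sum went the other way, from 15.9 to 28.2 CPM with vehicle up to 60.3 to 79.4 with the compound. That of regulatory T cell markers, mostly Il2ra, was 126 to 165 in stimulated vehicle and 39.4 to 68.6 in stimulated compound libraries. It was 22.3 to 40.4 and 34.9 to 44.2 CPM in the unstimulated ones. The part of these markers in the results was not tested. Of the 3 genes listed as a check of stimulation, Il2 was at 252 to 297 CPM in stimulated vehicle and 22.9 to 42.9 in stimulated compound libraries, and Nfatc1 at 861 to 862 and 300 to 374. Egr1, an immediate early transcription factor gene, went the other way, from 1370 to 1790 up to 8990 to 10900 CPM, so that the summed level of the list was 2490 to 2940 and 9400 to 11200. In bulk RNA, fewer cells of a type and less RNA per cell cannot be told apart.

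**Figure D3:**
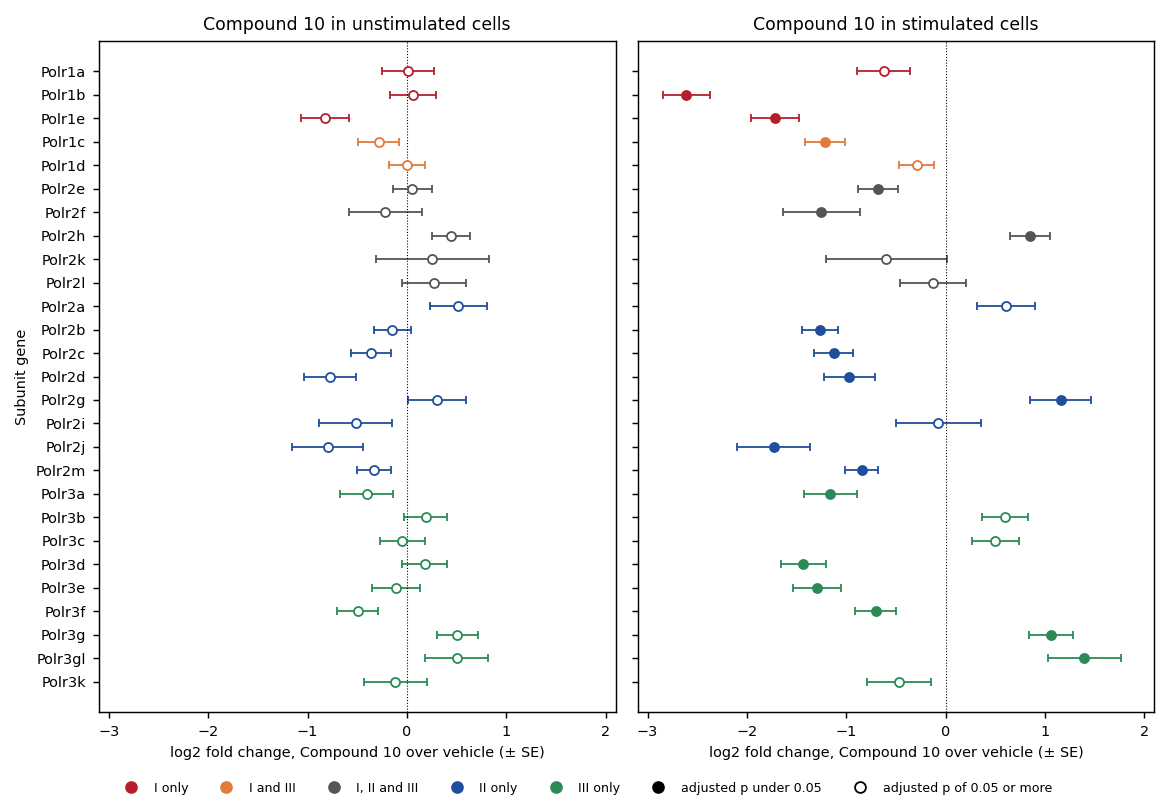
Log2 fold change of Compound 10 over vehicle with its SE (x axis) for each subunit gene named here (y axis) in unstimulated (left) and stimulated cells (right); filled points have an adjusted p under 0.05 and colours give the polymerases that hold the subunit. In stimulated cells 14 filled points lie below 0, Polr1b furthest at -2.61, and 4 lie above, while no point on the left is filled.

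In unstimulated cells none of the 28 genes was called for the compound by edgeR without a block, where 4.65% of all tested genes were called higher and 3.78% lower. The median was -0.025, beside 0.002 over all genes tested. At an unadjusted p under 0.05 there were 6: Polr1e (-0.83 ± 0.24), Polr2d (-0.77 ± 0.26), Polr2j (-0.80 ± 0.36) and Polr3f (-0.49 ± 0.20) below 0 and Polr2h (0.44 ± 0.19) and Polr3g (0.51 ± 0.20) above it. Polr1e came nearest to a call, at 23.6, 15.8 and 14.5 CPM with vehicle against 10.4 and 9.84 with the compound (adjusted p = 0.0567 by edgeR). DESeq2 called 2 genes lower (Polr1e and Polr2d) and limma-voom 1 (Polr1e), where they called 980 and 914 of all 14417 tested genes lower. The index numbers were also split into 3 runs, 13 to 16, 19 to 22 and 25 to 29. Placing 29 with 25 and 26 was a choice, since it lies as far from 26 as the runs lie from each other. With these runs as a block, edgeR called 5 genes. Polr2a (0.69 ± 0.10) and Polr3g (0.58 ± 0.17) were higher, and Polr1e (-0.66 ± 0.19), Polr2d (-0.89 ± 0.15) and Polr2j (-0.98 ± 0.19) were lower. Calls over all genes rose too: that fit called 1271 of 14417 higher and 1132 lower, against 670 and 545 without a block. In each of the 2 runs that hold both treatments, 1 library of each, these 5 genes had the same sign, for example -0.84 and -0.98 for Polr2d and 0.64 and 0.71 for Polr2a. The equal signs are no separate support, since the fit that picked these genes rests largely on the same differences. With the replicate number as a block the calls were 2 higher and 3 lower, with Polr1e (-0.90) and Polr2d (-0.55) again among those lower. Of all 14417 tested genes, 880 were higher and 751 lower in that fit. Without the third unstimulated vehicle library Polr1e was called lower (-0.96) and Polr2h higher (0.64) by edgeR. Polr1b was at 31.2 and 20.4 CPM, 1 library above and 1 below the vehicle range of 21.2 to 27.3, and Polr3d at 11.2 and 9.41 CPM.

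The interaction term tested whether the effect of the compound differed between stimulated and unstimulated cells. It was called for 3 of 28 genes, all with a lower value in stimulated cells, where 4.08% of all tested genes were called lower and 2.55% higher. They were Polr1b (-2.67 ± 0.33; adjusted p = 0.00215 by edgeR), Polr3d (-1.61 ± 0.32; 0.0147) and Polr2b (-1.12 ± 0.26; 0.0282). Polr1b and Polr2b encode the second-largest, catalytic subunits of polymerases I and II, and Polr3d a subunit of the TFIIF-like subcomplex of polymerase III. The median interaction of the 28 was -0.57, beside -0.001 over all genes. When either stimulated vehicle library was left out only Polr1b was called, with Polr3d at -1.62 and -1.58 (adjusted p = 0.0752 and 0.0748 by edgeR) and Polr2b at -1.16 and -1.07 (0.109 and 0.119). Polr2b was also not called without the first or the third stimulated compound library, the first unstimulated compound library or the second unstimulated vehicle library (-1.13, -1.02, -0.97 and -1.16). Without the third unstimulated vehicle library 5 genes were called, with Polr1c (-1.09) and Polr2c (-0.92) added. With the runs of index numbers as a block 10 genes were called lower, and with the replicate number as a block 8. Over all 14417 tested genes these 2 fits called 1290 and 908 lower, against 588 without a block. In the libraries with index numbers under 25 more of the 28 and more of all tested genes were called. There the unstimulated compound group holds 1 library, whose spread is assumed to be like that of the others.

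**Figure D4:**
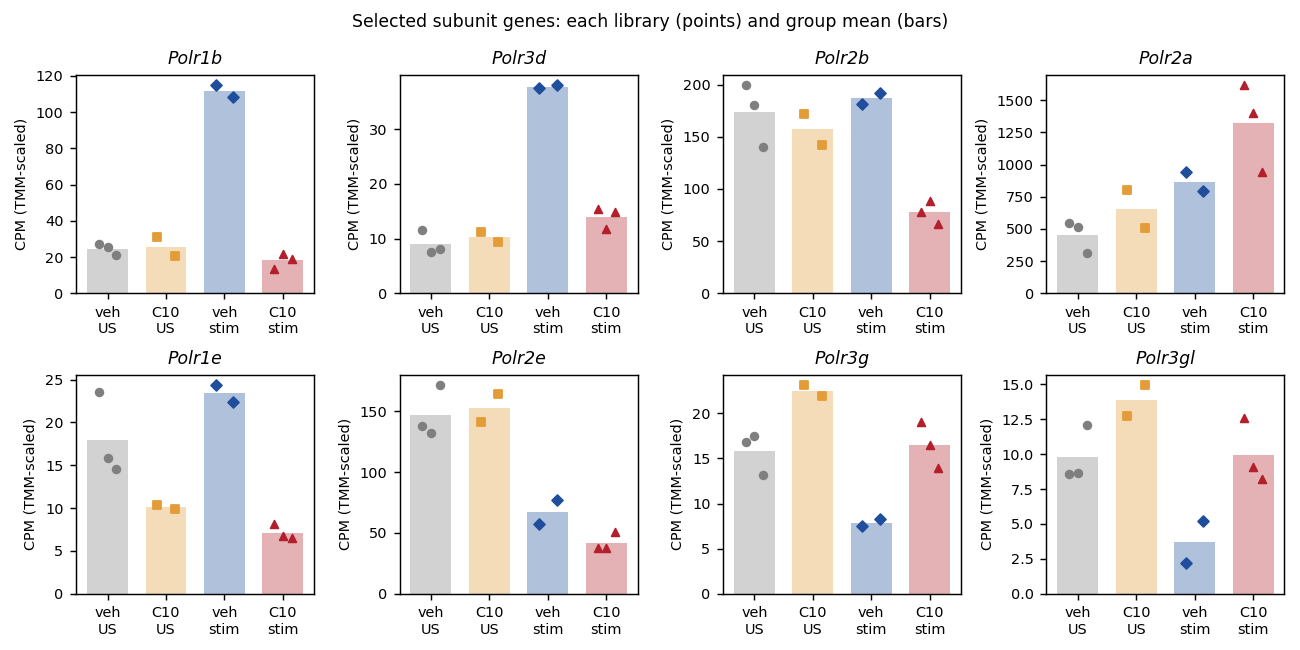
CPM with TMM scaling (y axis, from 0) in each library (points) and as the group mean (bars) for 8 subunit genes; veh is vehicle, C10 Compound 10, US unstimulated and stim stimulated. Polr1b and Polr3d are high in the 2 stimulated vehicle libraries alone, Polr2b is low in the 3 stimulated compound libraries alone, and Polr3g and Polr3gl are lowest with vehicle and stimulation.

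With Compound 10 present, stimulation raised 3 of the 28 genes, where 12.8% of all tested genes were called higher, and lowered 7, where 13.7% were. The median was -0.29, beside -0.01 over all genes tested. Polr1d (0.80 ± 0.19), Polr2a (1.02 ± 0.30) and Polr2h (0.81 ± 0.20) rose. Polr2e (-1.86 ± 0.20), Polr2i (-1.96 ± 0.38), Polr2j (-1.60 ± 0.36), Polr2f (-1.25 ± 0.38), Polr3a (-1.06 ± 0.27), Polr2b (-1.01 ± 0.18) and Polr3e (-0.997 ± 0.238) fell. Polr1b and Polr3d, which had the largest rises with vehicle, stood at -0.49 ± 0.23 and 0.45 ± 0.23 and were not called. With no scaling beyond library totals the median of all genes moved to -0.60 and the counts became 0 higher and 18 lower. Of all 14417 tested genes, 810 were then higher and 5219 lower. Without the first unstimulated compound library Polr1d, Polr2h, Polr3a and Polr3e were not called (0.63, 0.69, -0.88 and -0.64), and without the second Polr2a, Polr2f and Polr2j (0.69, -0.77 and -1.30). Without the first or the second stimulated compound library Polr2a (0.85 and 0.97) and Polr2f (-1.14 and -1.09) were not called.

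Since the catalytic subunits of an enzyme are needed together, their TPM ratio was taken in each library, where scaling between libraries drops out. The ratio of Polr2a to Polr2b was 1.91, 1.99 and 1.78 in unstimulated vehicle, 3.29 and 2.52 in unstimulated compound, 3.54 and 3.00 in stimulated vehicle and 14.4, 9.50 and 8.31 in stimulated compound libraries. The stimulated compound libraries lay above every other library. The ratio of Polr3a to Polr3b was 0.889 to 0.921 in unstimulated vehicle, 0.622 and 0.576 in unstimulated compound, 0.912 and 1.23 in stimulated vehicle and 0.366, 0.294 and 0.270 in stimulated compound libraries, again with the last group apart from all others but in the other direction. In polymerase I, Polr1a to Polr1b was 0.567 to 0.803 in unstimulated vehicle and 0.624 and 0.785 in unstimulated compound libraries. It was 0.218 and 0.225 in stimulated vehicle libraries, below all others, and 1.41, 0.734 and 0.704 in stimulated compound libraries. The ratio of the paralogs Polr3g to Polr3gl was highest in the stimulated vehicle libraries (3.17 and 1.41), and these differed from each other by more than the range over the other 8 libraries (0.550 to 1.21). These ratios are a description without a test.

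**Figure D5:**
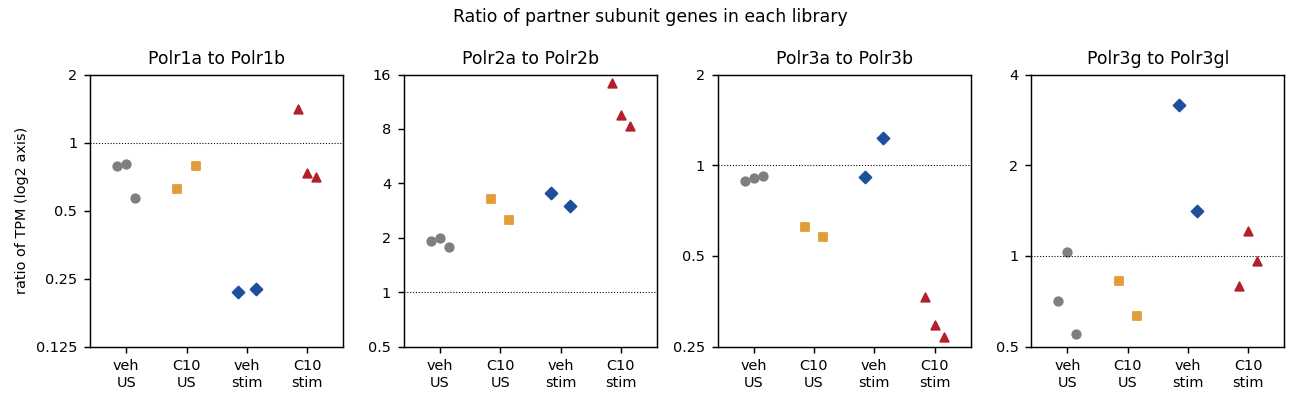
Ratio of TPM between partner genes (y axis, log2 scale) in each library by group; the dotted line marks equal TPM. With stimulation and Compound 10 the ratio of Polr2a to Polr2b is between 8.31 and 14.4 and that of Polr3a to Polr3b between 0.270 and 0.366, each apart from the other groups.

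For 15 of the 28 genes all counts lay in transcripts annotated as protein coding in every library, and for 20 at least 90% did. Among the other 8, the coding share ranged from 60.8% to 85.4% for Polr2e, 59.2% to 88.6% for Polr3f and 74.9% to 95.4% for Polr3g. A retained-intron transcript of Polr3g, 658 bases long, took 19.3% and 13.9% of the gene's counts in the stimulated vehicle libraries and 2.72% to 7.87% in the other 8. On coding transcripts alone, Polr2e was no longer called for the compound in stimulated cells (-0.52; adjusted p = 0.167 by edgeR). Polr1d, whose subunit joins polymerases I and III, had its counts spread over several coding transcripts. The share of the leading one, 1196 bases long, was 55.8% to 57.6% in unstimulated vehicle, 65.9% and 67.4% in unstimulated compound and 73.1% to 78.5% in all stimulated libraries. The share of another, 1167 bases long, was 9.62% to 13.3% in unstimulated and 0.995% to 5.30% in stimulated libraries. These shares are estimates from reads divided among overlapping transcripts, and no test was run on them.

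Promoters of 22 of the 28 genes were matched by symbol in RefSeq (GRCm38.p6), and the 250 bases upstream of each RefSeq start were searched. Some windows overlap annotated exons: all 250 bases for Polr1d, Polr2b, Polr2f and Polr2i, 225 for Polr1c and 215 for Polr3c, among others. Matches in these windows, such as those in Polr2f and Polr3c below, may thus lie in exons and not upstream of them. The windows of 3 genes are printed, for Polr1b, which had the largest change with Compound 10 in stimulated cells, and for the paralogs Polr3g and Polr3gl, which moved the other way. That of Polr1b is cut to 249 bases, since its last base is annotated as exon. They read 5′ to 3′ on the gene's strand. Capitals mark the longest run of bases that the Polr1b and Polr3gl windows share, chosen after seeing the sequences.
Polr1b (chr2:129100746-129100994, plus strand): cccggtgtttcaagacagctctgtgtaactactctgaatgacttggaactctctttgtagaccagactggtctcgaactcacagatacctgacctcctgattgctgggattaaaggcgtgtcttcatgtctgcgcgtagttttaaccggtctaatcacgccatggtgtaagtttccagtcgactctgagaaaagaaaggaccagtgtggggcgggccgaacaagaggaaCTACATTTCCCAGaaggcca
Polr3g (chr13:81711014-81711263, minus strand): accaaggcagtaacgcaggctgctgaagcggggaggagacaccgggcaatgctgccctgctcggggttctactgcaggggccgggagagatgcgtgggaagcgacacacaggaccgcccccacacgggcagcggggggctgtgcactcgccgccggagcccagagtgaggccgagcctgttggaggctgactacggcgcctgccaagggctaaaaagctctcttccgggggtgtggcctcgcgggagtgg
Polr3gl (chr3:96594182-96594431, minus strand): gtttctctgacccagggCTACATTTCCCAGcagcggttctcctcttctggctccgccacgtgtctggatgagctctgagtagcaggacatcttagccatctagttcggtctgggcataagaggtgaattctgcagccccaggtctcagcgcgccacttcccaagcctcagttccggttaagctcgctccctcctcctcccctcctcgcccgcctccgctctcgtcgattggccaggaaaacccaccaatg
The shared run of 13 bases starts at position -21 from the start of Polr1b and at -233 from that of Polr3gl. No other of the 22 genes holds it, and 87 of 32851 mouse promoters (0.265%) do on either strand. The 2 genes moved in opposite directions with stimulation under vehicle and with the compound in stimulated cells. In the other comparisons they had the same sign and neither was called. Polr1b and Polr3gl stood at -0.49 and -0.48 for stimulation with the compound, and at 0.06 and 0.50 for the compound in unstimulated cells.

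The 7 motifs chosen were searched on both strands in the same windows. TGANTCA, the letters of an AP-1 site, was in none of the 22 genes' windows, where 6.75% of all promoters hold it, and TGACGTCA, a cyclic AMP response element, was in none, where 1.55% hold it. TGGAAA, the core letters of an NFAT site, was in the windows of Polr1b, Polr2e and Polr3b, where 18.6% of all promoters hold it. In Polr1b it starts at -79 as its reverse complement. CACGTG, the E-box that Myc binds, was in those of Polr3c and Polr3gl (6.02% of all promoters), at -194 in Polr3gl. GGGCGG, a GC box, was in 14 of 22 (32.7% of all), CCGGAAGT, an ETS site, in Polr1c, Polr2f, Polr2j and Polr3b (2.88% of all), and AAGATGGCG, a YY1 site, in none (0.606% of all). The letters given for the AP-1 site, the cyclic AMP response element and the E-box read the same on both strands, and none of these letters shows that a factor binds. A missing match says only that the letters are not in this window.

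Other genes of the 3 transcription systems were taken from lists. Of 4 subunits known under other symbols, 3 fell with the compound in stimulated cells and 0 rose. Cd3eap, whose product pairs with that of Polr1e in polymerase I, went from 34.6 ± 5.56 CPM (SD, n = 2) to 12.6 ± 2.11 (n = 3; -1.45 ± 0.23, SE), the polymerase I stalk gene Twistnb fell by 0.88 ± 0.16 on the log2 scale and Crcp, of polymerase III, by 1.43 ± 0.29. Znrd1, the RNA-cleavage subunit gene of polymerase I, was not called (-0.50 ± 0.28). Crcp had no call in the interaction, while Cd3eap had (-1.31).

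Of 12 polymerase I factors 4 fell and 1 rose. Rrn3, which brings polymerase I to its promoter, went from 118 ± 12.2 to 59.5 ± 8.26 CPM (-0.98 ± 0.16), and of the promoter selectivity factor Taf1c (-1.24 ± 0.28) and Taf1a (-0.98 ± 0.28) fell while Taf1b rose (1.20 ± 0.25). On coding transcripts alone Taf1c was not called and its value turned to 6.54 ± 3.73 (adjusted p = 0.226 by edgeR). Of 19 polymerase III factors 7 fell and 1 rose. Gtf3c4, a subunit of the assembly factor TFIIIC, went from 84.7 ± 1.30 to 15.3 ± 3.95 CPM (-2.46 ± 0.21), Ssb, the La protein that binds the ends of new polymerase III transcripts, fell by 1.47 ± 0.16 on the log2 scale, Snapc2 by 1.78 ± 0.20 and Brf2 by 1.78 ± 0.33. The medians of these lists were -0.36 and -0.39.

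Of 32 tested general factors of polymerase II 9 fell and 2 rose (median -0.09). Cdk7 (-1.83 ± 0.19) and Mnat1 (1.98 ± 0.31), kinase and assembly factor of the same TFIIH module, went opposite ways; Ercc3, a TFIIH helicase gene, fell (-1.05 ± 0.20) and Gtf2a1, of TFIIA, rose (1.09 ± 0.23). Of 30 elongation factors 9 fell and 2 rose (median -0.34), with Ctr9 (149 ± 3.71 to 52.6 ± 1.46 CPM, -1.50 ± 0.13) and Leo1 (-2.01 ± 0.20) of the PAF complex, Supt6 (-1.28 ± 0.20) and Ell (-1.07 ± 0.20) among them. Of 14 assembly factors 3 fell and 1 rose (median -0.19): Ruvbl1 (-1.66 ± 0.18), Gpn1 (-1.05 ± 0.18), Pdrg1 (-1.10 ± 0.24) and Gpn3 (0.67 ± 0.20). Of 11 genes of mitochondrial transcription and DNA upkeep 4 fell and 1 rose (median -0.53): Tfb2m (-1.52 ± 0.21), Tfam (-0.99 ± 0.18) and Mterf4 (-1.42 ± 0.41) against Polg2 (1.15 ± 0.23). Over all tested genes, 12.8% were lower and 10.4% higher in this comparison, with a median of 0.04.

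Some of these calls by edgeR were lost when 1 library was left out, which for stimulated vehicle leaves 1 in the group. Without the first stimulated vehicle library Gpn3, Gtf2a1, Mterf4, Polg2, Taf1a, Taf1b and Taf1c were not called (0.50, 0.97, -1.37, 1.05, -0.73, 0.98 and -1.15), and without the second Gpn3, Mterf4 and Pdrg1 (0.87, -1.47 and -0.95). Without the first stimulated compound library Gpn3 and Taf1a were not called (0.66 and -0.91), without the second Mterf4 and Taf1a (-1.21 and -1.02), and without the third Gpn3 and Mterf4 (0.52 and -1.16).

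In the other comparisons the same lists gave the calls below, and no list was tested against all genes. Of all tested genes, 19.5% rose and 19.4% fell with stimulation under vehicle. With stimulation in the presence of the compound 12.8% and 13.7% did, and with the compound in unstimulated cells 4.65% and 3.78%. With stimulation under vehicle, 2 rose and 1 fell of the 4 subunits under other symbols, 4 and 2 of the 12 polymerase I factors, 8 and 8 of the 32 general and 12 and 7 of the 30 elongation factors of polymerase II, 3 and 7 of the 19 polymerase III factors, 0 and 6 of the 14 assembly factors and 1 and 5 of the 11 mitochondrial genes. With stimulation in the presence of the compound the counts, in the same order, were 0 and 1, 3 and 2, 5 and 12, 5 and 6, 0 and 8, 0 and 7, and 1 and 6. Compound 10 in unstimulated cells raised 1 polymerase I factor, 3 general factors and 1 elongation factor. It lowered 1 general factor, 1 elongation factor, 2 polymerase III factors, 1 assembly factor, 1 mitochondrial gene and, among the subunits under other symbols, Crcp, from 30.1 ± 9.35 CPM (n = 3) to 12.8 ± 1.15 (n = 2).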

How the data were processed

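The authors deposited 1 table per library with estimated counts and TPM values per transcript, made with kallisto after cutadapt, on mouse mm10 per the submitters' processing notes; for their versions and the annotation, nothing is given in the sources used here. Per the labels' protocols the kit was Clontech SMART-seq, whose libraries carry no strand. Transcripts were matched to GENCODE M21 (108214 of 109617; the rest held 0.507% to 0.671% of counts and were left out), and gene sums of the deposited estimated counts were rounded. edgeR 4.0.16 in R 4.3.3 fitted all 10 libraries with 1 coefficient per group, TMM factors and filterByExpr, and tested 5 contrasts by the quasi-likelihood F test with Benjamini-Hochberg adjustment over 14417 genes. A gene is called, risen or fallen where its adjusted p is under 0.05. The SE is the log2 fold change divided by the root of F. The deposited TPM values were summed per gene and not tested. Alternatives were other scalings, no filter, DESeq2 1.42.0, limma-voom (limma 3.58.1), blocks, coding transcripts only, no rRNA-like gene models, the groups compared alone and leaving out libraries; 1 more, on libraries with index numbers under 25, was added after seeing the data. Every subunit gene is named but 1, which enters the counts and is not reported here; of each other list up to 4 genes with the smallest adjusted p for the compound in stimulated cells are. The members and lists were chosen with earlier results of these data known. No 2 libraries of a group agreed within sampling noise (chi-square of at least 14.8 per degree of freedom). The test was checked on simulated counts.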

Additional observations from a re-analysis of the deposited data

Results flagged for a closer look

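The effect of Compound 10 differed between stimulated and unstimulated cells, by the interaction term of edgeR's quasi-likelihood fit, for 3 subunit genes. Polr1b had an interaction of -2.67 on the log2 scale (a compound effect of -2.61 in stimulated and 0.06 in unstimulated cells), Polr3d of -1.61 (-1.43 and 0.18) and Polr2b of -1.12 (-1.27 and -0.15). In each, all 3 stimulated compound libraries were below both stimulated vehicle libraries, while the unstimulated groups overlapped. This is no separate support, since the interaction that picked these genes rests on the same libraries. Nor is it particular to them: 18 of the 28 genes were apart and lower in stimulated cells, and 18 overlapped in unstimulated cells. The share over all tested genes was not counted.

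Among the named genes of the other lists the interaction was called for 9, all with a lower value in stimulated cells. Over all tested genes it was called lower for 4.08% and higher for 2.55%. The named genes had been picked by their adjusted p for the compound in stimulated cells. That difference is part of the interaction, so the choice favoured such calls and their count is no separate support. The 9 were Gtf3c4 (-2.32) and Ssb (-0.90) of polymerase III, Leo1 (-1.43), Ctr9 (-1.31), Supt6 (-1.23) and Cdk7 (-1.20) of polymerase II, Cd3eap (-1.31) and Rrn3 (-0.97) of polymerase I, and Tfb2m (-1.21) of mitochondrial transcription. Of these 9, Gtf3c4 and Ctr9 stayed called without either stimulated vehicle library, and the other 7 lost their call without each of the 2.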

How the results depend on the processing

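Counts of the 28 subunit genes are given as higher and lower. With no scaling beyond library totals they were 3 and 13 for stimulation under vehicle and 0 and 18 for stimulation with the compound. For the compound in unstimulated cells the counts were 0 and 1. Of all 14417 tested genes, that fit called 1202 and 6610, 810 and 5219, and 470 and 637 in the same order. For stimulation under vehicle, it called Polr2b (-0.67), Polr2c (-0.55) and Polr3f (-0.73) in the direction opposite to their uncalled main value. With no filter on low counts, 8 were lower for stimulation under vehicle, 2 for the compound in unstimulated cells, and 1 was higher and 5 lower for the interaction. DESeq2 gave 2 lower in unstimulated cells and 5 lower for the interaction, and limma-voom 1 lower in unstimulated cells. With only the groups compared, 7 were higher for the compound in stimulated cells. The labels do not say whether replicate numbers pair the libraries. Correlations of same-number libraries ran from -0.279 to 0.331, with 2 of 13 above 0.1. They cannot decide it, because deviations were taken within each group and mirror each other in a group of 2 libraries. A replicate block gave 2 higher and 3 lower in unstimulated cells and 8 lower for the interaction. An index run block gave 7 higher in stimulated cells, 2 higher and 3 lower in unstimulated cells and 10 lower for the interaction. Over all tested genes both blocks also called more in each comparison. With only index numbers under 25, the unstimulated compound group held 1 library. More of the 28 were then called for stimulation under vehicle, the compound in stimulated cells and the interaction, as over all tested genes. In unstimulated cells more of the 28 but fewer of all tested genes were called. Leaving out each library in turn gave 4 to 8 higher and 3 to 6 lower for stimulation under vehicle, 1 to 4 and 5 to 9 for stimulation with the compound, 0 to 5 and 8 to 15 for the compound in stimulated cells, 0 to 1 of each in unstimulated cells, and 0 and 1 to 5 for the interaction. On coding transcripts alone Taf1c stood at 6.54 ± 3.73 in stimulated cells (adjusted p = 0.226 by edgeR). The cause of these changes was not tested. Of the calls of the 28 genes, 8 of 18 for the compound in stimulated cells, 6 of 11 and 3 of 10 for stimulation with vehicle and compound, and 1 of 3 for the interaction held in every alternative. The SE of the weakly expressed genes Polr2k and Polr2i was 0.36 to 0.83; their counts in the unstimulated vehicle libraries were 81, 113 and 615, and 195, 220 and 712, and how much of the SE is due to depth was not tested.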
